A study of Danio rerio with 15 samples.

Results

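The 4 tubule genes slc6a19b, slc26a6l, slc22a2 and acy1 were followed in the zebrafish kidney after acute kidney injury (AKI). They were matched by symbol in a table of 5686 genes, where each of the 4 symbols names 1 row. They were chosen by their measured FPKM in these same kidneys, for being lower after injury than in uninjured kidneys. slc6a19b had stood out for a large fall at 3 and 7 days post-injury (dpi), and slc26a6l at 5 dpi. slc22a2 and acy1 are also 2 of the genes by which the study recognised proximal tubule epithelial cells in its single-cell data. Levels against uninjured kidneys are therefore given here as a description with no test. Tests are kept for differences among the injured groups. All 4 genes were chosen for low levels after injury, so these tests are not wholly free of the choice. This holds most for slc6a19b at 3 and 7 dpi and for slc26a6l at 5 dpi.

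The kidneys came from 6-month-old AB strain zebrafish of no stated further genotype. They fell into 5 groups with 3 samples each: uninjured fish, and fish 1, 3, 5 and 7 days after gentamicin was injected into the peritoneal cavity. Per the study's methods, injured fish entered the experiments only if they excreted protein at 1 dpi, so the injured groups were a selected set of fish. No sham injection and no other treatment is named. The methods call the 3 samples of a group biological replicates, without saying whether a sample was 1 kidney or a pool, and p-values measure the spread between these samples. Kidneys were lysed and poly(A) RNA was sequenced, and levels are FPKM, the fragments counted on a gene scaled to its length and to the sequencing depth. Because kidney tissue was not sorted into cell types, fewer cells of a type and less RNA per cell cannot be told apart.

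The proximal tubule is the first part of the nephron tubule, where filtered amino acids, sugars, phosphate and organic ions are taken back from the urine by carriers in the brush border and the basolateral membrane. Gentamicin is an aminoglycoside that is known to enter these cells by endocytosis and to damage them. Fish kidneys can afterwards repair tubules and also form new nephrons, which mammals do not do as adults. SLC6A19 is the sodium-coupled carrier of neutral amino acids in the mammalian brush border. SLC26A6 is an anion exchanger that moves chloride, bicarbonate and oxalate, and slc26a6l is named as a gene like it. SLC22A2 carries organic cations into mammalian proximal tubule cells from the blood side. ACY1 is a cytosolic zinc enzyme that splits acetyl groups from N-acetylated amino acids.

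The genome build named in the submitters' processing notes is GRCz11. On it slc6a19b (ENSDARG00000056719) lies on chromosome 16 from 19168425 to 19192910 on the plus strand, and slc26a6l (ENSDARG00000054127) on chromosome 6 from 40726018 to 40735156 on the plus strand. slc22a2 (ENSDARG00000030530) lies on chromosome 20 from 42771765 to 42791377 on the plus strand, and acy1 (ENSDARG00000038475) on chromosome 22 from 36772140 to 36832541 on the minus strand. All 4 values are sums over whole genes, not over a single exon or transcript. The span of acy1 overlaps a protein-coding gene on the same strand, FO704622.1, and a microRNA gene on the other strand, CU896698.1. The other 3 genes overlap no gene in the table. FO704622.1 was at 10.8 to 17.1 FPKM in uninjured kidneys, at 24.9 to 34.3 FPKM at 3 dpi and at 11.1 to 14.7 FPKM at 7 dpi. CU896698.1 was at 2.55 to 3.33 FPKM in uninjured kidneys, at 14.6 to 15.2 FPKM at 3 dpi and at 2.02 to 11.95 FPKM at 7 dpi. Both were thus higher than in uninjured kidneys at 3 dpi, where acy1 was lower. How reads in the shared stretch were assigned is not stated, and acy1 is uncertain to that extent.

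The FPKM values were whole multiples of what 1 read is worth, which gave back the depth: between 13876000 and 16368000 reads stood behind the FPKM of each sample, and the reads on the table's genes were 19.2 to 34.2% of them. At this depth 1 read was worth 0.0241 to 0.0284 FPKM for slc6a19b and 0.0203 to 0.0239 FPKM for slc26a6l. slc22a2 had 3091 to 35886 reads a sample, acy1 1065 to 4780, slc6a19b 85 to 8629 and slc26a6l 13 to 1576. None of the 4 genes was at 0 in any sample, and the lowest value, of slc26a6l at 3 dpi, rested on 13 reads. In uninjured kidneys slc22a2 had the highest mean per length, 516 ± 284 FPKM (SD, n = 3), above slc6a19b at 206 ± 25.4 FPKM, acy1 at 53.2 ± 8.79 FPKM and slc26a6l at 34.5 ± 3.08 FPKM. The ranges of these 4 levels did not overlap between neighbours in that order.

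The level of slc6a19b was lower at 1 dpi than before injury, lowest at 3 dpi, and partly back at 5 and 7 dpi. The 3 uninjured samples held 216, 225 and 177 FPKM. At 1 dpi they held 55.6, 33.7 and 43.6 FPKM, and at 3 dpi 10.0, 7.43 and 2.26 FPKM. At 5 dpi they held 35.8, 39.8 and 10.9 FPKM, and at 7 dpi 18.05, 34.8 and 21.9 FPKM. All 12 injured samples lay below all 3 uninjured samples, and the 3 dpi samples lay below every other sample, with the lowest of 5 dpi only just above the highest of 3 dpi. The group means were 21.5, 3.18, 14.0 and 12.1% of the uninjured mean at 1, 3, 5 and 7 dpi, which at 3 dpi was a 31.4-fold lower mean.

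slc26a6l was likewise lower at 1 dpi and lowest at 3 dpi, at a lower level and with a wider spread. At 5 dpi the mean of slc26a6l was 1.33-fold above its 3 dpi mean, and that of slc6a19b 4.39-fold. slc26a6l was chosen by its low 5 dpi level and slc6a19b by its low 3 dpi level, so nothing is read from this contrast. In log2 the 95% intervals of these changes overlapped, −1.09 to 2.28 and 0.38 to 3.54. A difference between the 2 genes was not tested. The uninjured samples held 37.7, 31.6 and 34.1 FPKM. At 1 dpi the values were 15.6, 8.89 and 11.5 FPKM, and at 3 dpi 6.52, 1.67 and 0.292 FPKM. At 5 dpi they were 5.79, 3.73 and 1.76 FPKM, and at 7 dpi 3.98, 14.5 and 6.48 FPKM. Again all 12 injured samples lay below the uninjured ones, while the 3, 5 and 7 dpi groups overlapped one another. The 3 samples at 3 dpi differed 22.4-fold among themselves, from 13 to 319 reads. The group means were 34.8, 8.21, 10.9 and 24.1% of the uninjured mean, and the fold at 3 dpi was 12.2.

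acy1 did not follow these carriers at 1 dpi. The uninjured samples held 44.5, 62.0 and 53.2 FPKM, and the 1 dpi samples 50.9, 55.7 and 68.1 FPKM, with 1 of the 3 above every uninjured sample. At 3 dpi the values were 23.5, 21.0 and 19.3 FPKM. At 5 dpi they were 31.998, 32.12 and 15.1 FPKM, and at 7 dpi 21.7, 19.3 and 17.04 FPKM. From 3 dpi on, all 9 samples lay below all uninjured and all 1 dpi samples. The group means were 109.5, 39.98, 49.6 and 36.4% of the uninjured mean, so the depth of the difference never went beyond 2.75-fold.

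slc22a2 was the last of the 4 to separate from uninjured kidneys. The uninjured samples held 286, 834 and 428 FPKM, a 2.91-fold range that was the widest of the 4 genes before injury. At 1 dpi the values were 348, 202 and 472 FPKM, and at 3 dpi 297, 192 and 355 FPKM. At 5 dpi they were 327, 277 and 71.1 FPKM, and at 7 dpi 140, 106 and 135 FPKM. The samples of 1, 3 and 5 dpi overlapped the uninjured ones, and only at 7 dpi did all 3 lie below, then within a narrow 1.32-fold range of one another. The group means stepped down to 66.0, 54.5, 43.6 and 24.6% of the uninjured mean.

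**Figure D1:**
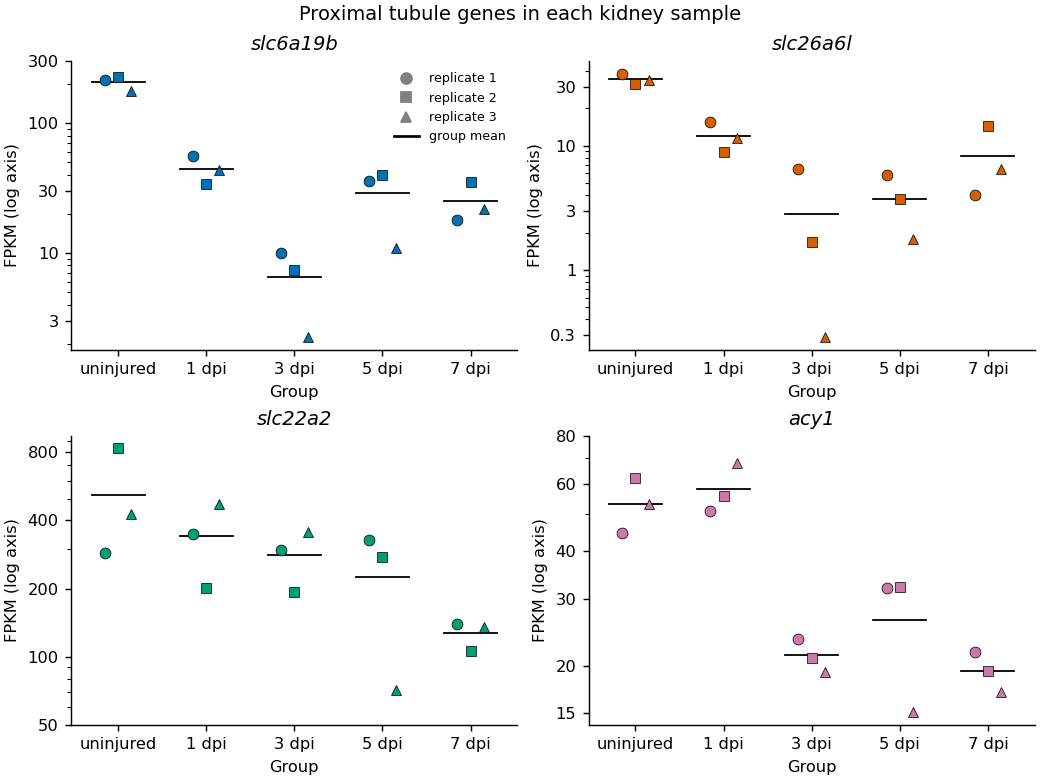
Level of each gene in the 15 kidney samples, in FPKM on a log axis that differs between panels. Each symbol is 1 sample, its shape is the replicate number in the sample title, and the line is the group mean of 3 samples. slc6a19b and slc26a6l are lowest at 3 dpi (means 6.57 and 2.83 FPKM), acy1 is at its uninjured level at 1 dpi, and slc22a2 leaves the uninjured range only at 7 dpi.

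Set side by side, 2, 3, 3 and 4 of the 4 genes had all 3 samples below all 3 uninjured samples at 1, 3, 5 and 7 dpi. Among all 5685 genes tested these shares were 20.1, 24.7, 16.3 and 27.4%. Since the 4 genes were chosen for being lower, nothing is read from their count. All genes tested are a selected part of the transcriptome, and how they were selected is not stated, so these and later shares hold for that part alone. In log2(FPKM + 1), which understates changes of low values, the differences of slc6a19b from uninjured were −2.22 ± 0.24 (standard error, n = 3 against 3), −4.94 ± 0.45, −2.98 ± 0.49 and −3.04 ± 0.27 at 1, 3, 5 and 7 dpi. Those of slc26a6l were −1.48 ± 0.25, −3.58 ± 0.61, −2.99 ± 0.34 and −2.09 ± 0.41. acy1 stood at 0.13 ± 0.22, −1.27 ± 0.19, −1.05 ± 0.33 and −1.41 ± 0.19, and slc22a2 at −0.54 ± 0.48, −0.78 ± 0.45, −1.32 ± 0.69 and −1.88 ± 0.40. The early differences of slc22a2 rested on uninjured replicate 2, without which they were −0.12 (1 dpi), −0.36 (3 dpi), −0.91 (5 dpi) and −1.47 (7 dpi). That sample had next to no expression of ovary genes (2.14 FPKM in sum), unlike the other uninjured samples with 1138 and 1783 FPKM, and the part of this in the slc22a2 level was not tested. Scaling the samples by median-of-ratios size factors instead shifted the injured samples against uninjured by 0.15 at 3 dpi and 0.19 at 7 dpi in log2, toward higher values, and the 4 genes kept their direction.

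**Figure D2:**
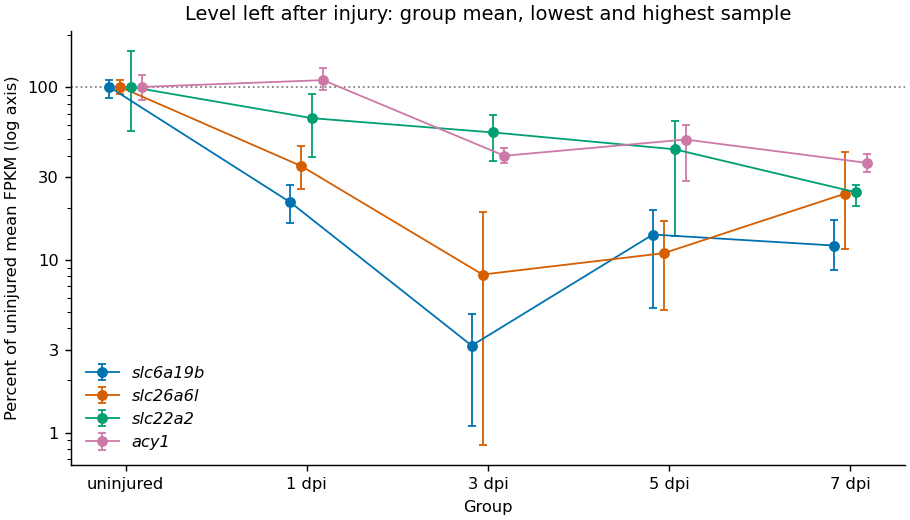
Mean level of each gene as a percent of its uninjured mean, on a log axis, by group. Bars run from the lowest to the highest of the 3 samples. At 3 dpi slc6a19b had 3.18% left and slc26a6l 8.21%, while acy1 had 39.98% and slc22a2 54.5%, and at 7 dpi the 4 genes lay between 12.1 and 36.4%.

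Ratios of 2 genes in the same sample are free of the scaling between samples. The ratio of slc6a19b to acy1 was 3.34 to 4.86 in uninjured kidneys, 0.604 to 1.09 at 1 dpi and 0.117 to 0.425 at 3 dpi. It was 0.722 to 1.24 at 5 dpi and 0.831 to 1.80 at 7 dpi, so that no injured sample reached the uninjured range. The ratio of slc26a6l to acy1 overlapped its uninjured range again at 7 dpi: it was 0.509 to 0.848 in uninjured kidneys, 0.0151 to 0.277 at 3 dpi, and by 7 dpi 0.183 to 0.749. The ratio of slc22a2 to acy1 behaved differently: it was 6.44 to 13.4 in uninjured kidneys, 9.16 to 18.4 at 3 dpi and 5.49 to 7.91 at 7 dpi, and these ranges overlapped. slc6a19b was thus lower relative to acy1 in all 12 injured samples, and at no time did the ratio of slc22a2 to acy1 separate from uninjured kidneys.

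The first question among injured kidneys was when each gene fell. It was tested with limma, a linear model for each gene that borrows information on the variance from all genes, and its p-values were adjusted for the number of genes. From 1 to 3 dpi slc6a19b fell further, by 2.73 ± 0.47 on the log2 scale (limma, adjusted p = 0.0113, Benjamini-Hochberg over all 5685 genes, two-sided). acy1 fell over the same interval by 1.41 ± 0.20 (limma adjusted p = 0.00575). Of all genes tested, 15.6% were lower at 3 than at 1 dpi, and 48.2% had groups that did not overlap, so change was common in this comparison. slc26a6l had a difference of −2.10 ± 0.62 with an adjusted p of 0.05002, on the threshold of 0.05. slc22a2 differed by −0.24 (95% interval −1.14 to 0.67, limma adjusted p = 0.639). The calls of slc6a19b and acy1 held when any 1 of the 6 samples was left out, with adjusted p up to 0.0384 and 0.0294. The fall of slc6a19b draws on its low 3 dpi level, by which it was chosen.

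Between 1 and 7 dpi acy1 and slc22a2 were the ones to pass. acy1 fell by 1.54 ± 0.20 on the log2 scale (limma adjusted p = 0.00239) and slc22a2 fell by 1.34 ± 0.33 (limma adjusted p = 0.0213), each with all 3 samples of 7 dpi below all 3 of 1 dpi. Of all genes tested 24.3% were lower and 12.1% higher at 7 than at 1 dpi, and 53.2% had groups that did not overlap. slc6a19b stood at −0.83 (95% interval −1.55 to −0.11, limma adjusted p = 0.0707) and slc26a6l at −0.61 (95% interval −1.65 to 0.43, limma adjusted p = 0.312). The call of acy1 held without any 1 sample. That of slc22a2 was lost without 4 of the 6 samples in turn (1 dpi replicate 1 and each of the 3 samples of 7 dpi, adjusted p up to 0.0732).

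At 5 dpi against 1 dpi, slc26a6l differed by −1.51 ± 0.39 (limma adjusted p = 0.0293) and acy1 by −1.18 ± 0.33 (limma adjusted p = 0.0363), both with groups that did not overlap. Of all genes tested 16.7% were lower and 15.3% higher, and 50.9% had groups that did not overlap. slc6a19b stood at −0.76 (95% interval −1.96 to 0.43) and slc22a2 at −0.78 (95% interval −2.30 to 0.73), and neither passed the threshold. Both calls rested on the full set of samples: each was lost without any 1 sample except 5 dpi replicate 1, with adjusted p up to 0.0866 and 0.0902. 5 dpi replicate 3 was the lowest of its group in all 4 genes, and also in the summed level of 45 other proximal tubule genes, 725 FPKM against 1866 and 2170 FPKM in the other 5 dpi samples.

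The second question was recovery. slc6a19b rose from 3 to 7 dpi by 1.90 ± 0.48 on the log2 scale (limma adjusted p = 0.0389), with all 3 samples of 7 dpi above all 3 of 3 dpi. In that comparison 16.7% of all genes differed in either direction, and 43.1% had groups that did not overlap. Marker genes of the ovary were among those higher, 10 of the 11 in the table, and their part in the rise of slc6a19b was not tested. The rise brought its mean 3.80-fold above the 3 dpi mean but gave back only 9.19% of the FPKM that had been lost. It was lost as a call without any 1 sample except 3 dpi replicate 1 (adjusted p up to 0.108). The rise starts from the low 3 dpi level by which slc6a19b was chosen, so it is not free of the choice. slc26a6l was 2.94-fold higher in mean at 7 than at 3 dpi, which was 17.3% of the lost FPKM, but the samples overlapped and the difference of 1.49 did not pass (95% interval −0.13 to 3.11, limma adjusted p = 0.164).

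slc22a2 moved the other way over that interval. It fell from 3 to 7 dpi by 1.11 ± 0.27 on the log2 scale (limma adjusted p = 0.0369), with all 3 samples lower. The call was lost without any 1 sample except 3 dpi replicate 2 (adjusted p up to 0.102). As above, 16.7% of all genes differed between these groups and 43.1% had groups that did not overlap. Ovary genes summed to 1.62 to 12.4 FPKM at 3 dpi and 147 to 250.1 FPKM at 7 dpi, and their part in the fall of slc22a2 was not tested. acy1 differed by −0.13 between 3 and 7 dpi, with a 95% interval of −0.54 to 0.28, so a return of acy1 to its uninjured level, which would be a rise of 1.27 on this scale, lay outside that interval. Both slc22a2 and acy1 had their lowest group mean at 7 dpi.

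The interval was then split at 5 dpi. From 3 to 5 dpi slc6a19b was higher by 1.96 in log2 (95% interval 0.38 to 3.54), with no overlap between the groups, yet the limma adjusted p was 0.185. slc26a6l stood at 0.59, slc22a2 at −0.55 and acy1 at 0.23 over that step, with adjusted p of 0.633, 0.622 and 0.690 by limma. Only 4 genes in all, 0.0704%, passed in that comparison, where 28.0% had groups that did not overlap and 1105 had an unadjusted p below 0.05. From 5 to 7 dpi the difference of slc6a19b was −0.07 (95% interval −1.34 to 1.204). slc26a6l, slc22a2 and acy1 stood at 0.90, −0.56 and −0.36, with intervals that all held 0. Of all genes 28.8% had groups that did not overlap between 5 and 7 dpi. No gene of the table (0.0%) passed by limma on log2(FPKM + 1), while 1277 had an unadjusted p below 0.05, and limma voom on the recovered reads also called 0. That count hangs on single samples: without 5 dpi replicate 1, 453 genes passed.

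Over all 12 injured samples, the mean of 5 and 7 dpi was set against that of 1 and 3 dpi. acy1 differed by −0.65 ± 0.19 (limma adjusted p = 0.0221), where 20.2% of all genes were lower late than early. Its group means were 58.3, 21.3, 26.4 and 19.4 FPKM at 1, 3, 5 and 7 dpi, so the difference drew on its 1 dpi level. Neither 5 nor 7 dpi passed against 3 dpi for acy1. An exact permutation test of the same 6 against 6 samples gave a two-sided p of 0.108, with 0.00216 the smallest it can give. slc22a2 differed by −0.95 ± 0.37, with an exact permutation p of 0.0368 and a limma adjusted p of 0.0679. slc6a19b and slc26a6l differed by 0.57 and −0.01, with limma adjusted p of 0.257 and 0.987, and for both the 1 dpi mean lay above the later means and the 3 dpi mean below them. The call of acy1 was lost without 7 dpi replicate 3 (adjusted p = 0.0511).

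**Figure D3:**
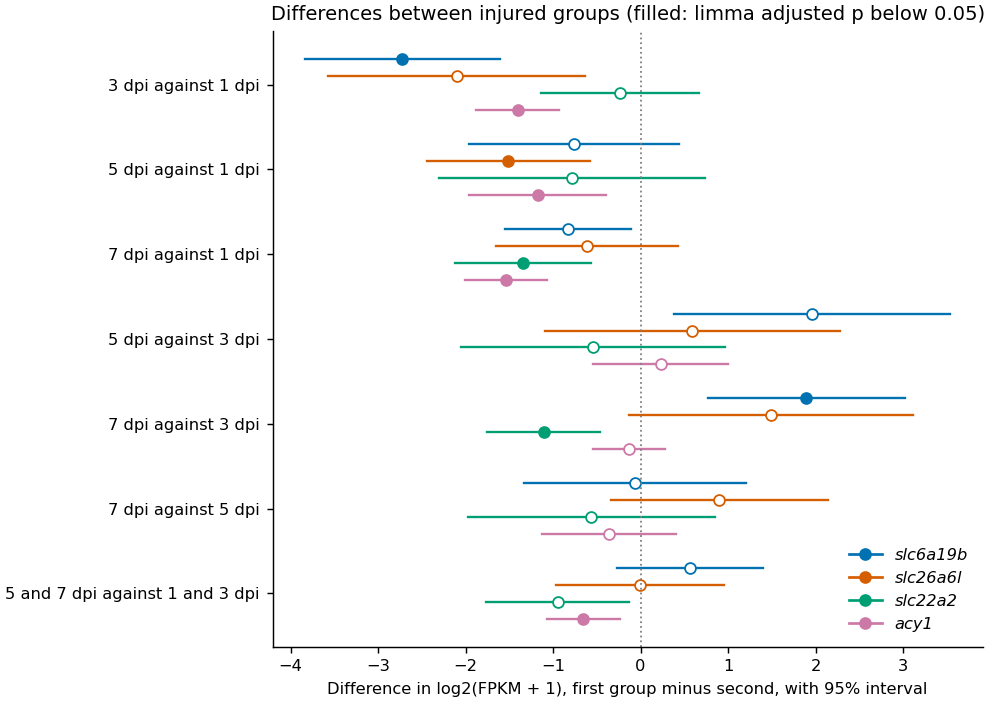
Differences in log2(FPKM + 1) between injured groups, first group minus second, for the 4 genes. Points are limma estimates, lines are 95% intervals, and filled points passed an adjusted p of 0.05. slc6a19b falls from 1 to 3 dpi (−2.73) and rises from 3 to 7 dpi (1.90), slc22a2 falls from 3 to 7 dpi (−1.11), and acy1 lies below its 1 dpi level at 3, 5 and 7 dpi (−1.41, −1.18 and −1.54).

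Relatives of the carriers give a view of each family in the same kidneys. Apart from slc6a19b the table lists 10 genes of the slc6a family, of which 1, 4, 1 and 6 passed as lower than uninjured at 1, 3, 5 and 7 dpi and 1, 0, 0 and 0 as higher. The share of all genes that were lower was 6.9, 6.91, 1.46 and 12.4%, and that of genes that were higher was 12.9, 6.4, 6.7 and 4.78%. The closest in name, slc6a19a.1 and slc6a19a.2, had 34.1 and 50.8% of their uninjured means at 1 dpi, 15.7 and 14.97% at 3 dpi, then 17.7 and 10.32% at 7 dpi. Their levels at 5 dpi were 31.4 and 22.5%. Neither passed at 1 dpi, and slc6a19a.2 alone passed at 5 dpi (−2.19, limma adjusted p = 0.0462). At 3 dpi and then at 7 dpi both passed, with log2 differences of −2.65 and −2.72, followed by −2.27 and −2.98 (limma adjusted p = 0.0395, 0.0213, 0.0231 and 0.0163). How reads were shared among these slc6a19 copies is not stated, so a split between them is uncertain.

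slc6a11b was low at the same times as slc6a19b, with 34.5, 17.1, 27.8 and 15.3% of its uninjured mean at 1, 3, 5 and 7 dpi. At 3 dpi it passed as lower (log2 difference −2.06, limma adjusted p = 0.0135). Some other slc6a genes took other courses. slc6a18, a related carrier of neutral amino acids, had 51.2% of its uninjured mean at 3 dpi (log2 difference −0.91, limma adjusted p = 0.0452), and stood at 96.1% at 5 dpi and 62.8% at 7 dpi. slc6a6a, a gene of the taurine transporter group, was at 83.7, 171.8 and 42.0 FPKM in uninjured kidneys. At 3 dpi it was at 40.6, 41.5 and 129.8 FPKM, the last in replicate 3. At 7 dpi it was at 12.4 to 15.1 FPKM, 14.0% of its uninjured mean (log2 difference from 3 dpi −2.05, limma adjusted p = 0.0264). slc6a8, the creatine transporter gene, and slc6a14 reached 255.9% at 1 dpi and 289.6% at 3 dpi, and neither difference from uninjured passed.

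Of the slc26a family the table lists 5 genes besides slc26a6l, of which 2, 2, 0 and 2 were lower than uninjured at 1, 3, 5 and 7 dpi and 1, 0, 0 and 0 higher. Of all genes tested 6.9, 6.91, 1.46 and 12.4% were lower and 12.9, 6.4, 6.7 and 4.78% higher. The lower slc26a genes were 2 that both carry the symbol slc26a6. The one at the higher level (ENSDARG00000055835), with an uninjured mean of 124 FPKM, had 25.8, 18.6, 32.8 and 34.8% left at 1, 3, 5 and 7 dpi. The other (ENSDARG00000097292), at 5.68 FPKM, had 21.2, 33.6, 50.1 and 20.5%. At 3 and 5 dpi slc26a6l had less left than either. It was chosen by its low level after injury, at 5 dpi above all, so nothing is read from this place. At 1 dpi slc26a6l had more left than either, 34.8%, and at 7 dpi it lay between them, at 24.1%. slc26a10 rose at 1 dpi by 1.21 (limma adjusted p = 0.0258), to 241.7% of its uninjured mean, and fell from 1 to 3 dpi by 1.97 (limma adjusted p = 0.00771).

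Of the slc22a family 6 genes are listed besides slc22a2, and 2, 3, 1 and 3 of them were lower than uninjured at 1, 3, 5 and 7 dpi, with 1, 0, 0 and 0 higher. The shares of all genes were 6.9, 6.91, 1.46 and 12.4% lower and 12.9, 6.4, 6.7 and 4.78% higher. slc22a6l, named like a carrier of organic anions, was lower at each of the 4 times, with 27.8, 9.27, 27.6 and 14.6% left (log2 differences −1.88, −3.86, −1.85 and −2.87, limma adjusted p = 0.00905, 0.0354, 0.0178 and 0.0191). Its lowest mean was at 3 dpi, like slc6a19b and unlike slc22a2, but this rested on 3 dpi replicate 3. The 3 dpi samples of slc22a6l held 18.1, 17.1 and 1.13 FPKM and the 7 dpi samples 15.3, 32.1 and 9.66 FPKM. These groups overlapped, and the difference between them did not pass (limma adjusted p = 0.439). slc22a4, a gene of the zwitterion and cation carriers, rose at 1 dpi by 1.03 (limma adjusted p = 0.0404) and stood at −1.26 at 3 dpi and −1.46 at 7 dpi (limma adjusted p = 0.02 and 0.0163). slc22a7b.1 and slc22a7b.2 kept 40.3 and 61.7% at 7 dpi, and neither passed. acy1 is the only gene of its name group in the table.

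**Figure D4:**
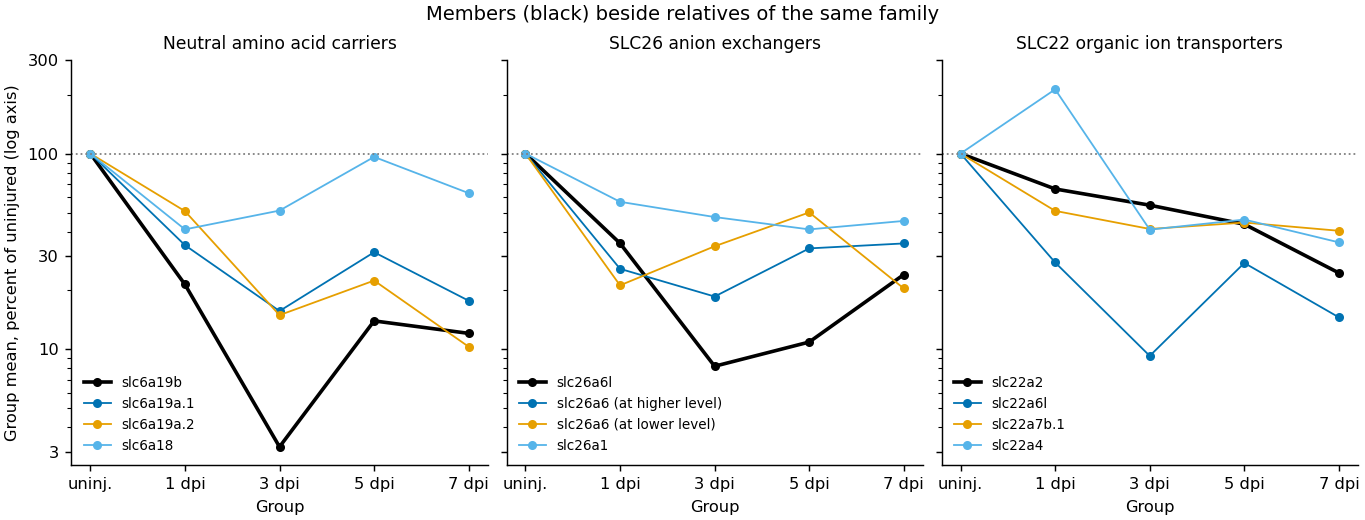
Group means as a percent of the uninjured mean, on a log axis, for slc6a19b, slc26a6l and slc22a2 (black) and 3 relatives of each. Each point is the mean of 3 samples, and the spread over samples is not drawn. slc6a19a.1 and slc6a19a.2 reach 15.7 and 14.97% at 3 dpi where slc6a19b reaches 3.18%, and slc22a6l reaches 9.27% where slc22a2 stays at 54.5%. slc6a19b was chosen by its low level at 3 dpi, so nothing is read from its place there.

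The 4 genes were then set among other genes of the proximal tubule. Of a list of 68 such genes, 45 are in the table, and none was at 0 in any sample. Of the 45, 15, 24, 4 and 33 were lower than uninjured in order of time, and 4, 0, 0 and 0 were higher. As shares, 33.3, 53.3, 8.89 and 73.3% were lower, beside 6.9, 6.91, 1.46 and 12.4% of all genes tested. At 1 dpi 8.89% of the list was higher, beside 12.9% of all genes tested. The median log2 difference of the list was −0.81, −1.25, −1.16 and −1.44, beside −0.09, −0.13, −0.09 and −0.22 over all genes tested. All 3 samples lay below all uninjured samples for 21, 34, 33 and 39 of the 45 genes, or 46.7, 75.6, 73.3 and 86.7%. Among all genes tested this held for 20.1, 24.7, 16.3 and 27.4%. The counts of genes that passed hang on single samples: without 1 of the 6 samples they ranged from 5 to 18 and from 5 to 22 at the first 2 times, and from 0 to 3 and from 0 to 34 at the later ones. The lowest were without uninjured replicate 1 at 1 dpi, without 3 dpi replicate 2 at 3 dpi, and without 7 dpi replicate 1 or 7 dpi replicate 3 at 7 dpi.

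Of 5 genes of endocytic receptors and their partners, by which filtered protein is taken up, 3 passed as lower at 1, 3 and 7 dpi and 1 at 5 dpi. Of all genes tested 6.9, 6.91, 1.46 and 12.4% were lower at 1, 3, 5 and 7 dpi. lrp2a, the gene of megalin, was lower at all these times, with log2 differences of −2.84 ± 0.52, −3.19 ± 0.48, −1.91 ± 0.32 and −2.73 ± 0.24 (limma adjusted p = 0.0143, 0.0162, 0.0285 and 0.0163). cubn, the gene of its partner cubilin, was lower at 1 dpi (−2.30 ± 0.40, limma adjusted p = 0.0122). lrp2b and amn were not called: lrp2b, at a low level, was at 0.154 to 0.281 FPKM in uninjured samples and 0.496 to 1.16 FPKM at 1 dpi (limma adjusted p = 0.0859), and amn had 64.7% of its uninjured mean at 1 dpi (limma adjusted p = 0.136). lrp2a and cubn were thus called at 1 dpi, the time at which acy1 and slc22a2 still overlapped the uninjured kidneys.

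Of 3 glucose carriers 1, 2, 2 and 2 were lower, and of 2 phosphate carriers 0, 2, 0 and 2. The shares of all genes that were lower were again 6.9, 6.91, 1.46 and 12.4%. slc5a2, the sodium-glucose cotransporter gene of the brush border, differed by −3.56 ± 0.54 at 3 dpi and −2.67 ± 0.40 at 5 dpi (limma adjusted p = 0.0169 and 0.0230). slc2a2, a facilitative glucose carrier gene, differed by −1.89 ± 0.39 at 5 dpi (limma adjusted p = 0.0420). slc5a1, the other sodium-glucose cotransporter gene, stood at 214, 145 and 152% of its uninjured mean at 1, 3 and 5 dpi and at 70.9% at 7 dpi, and passed at none of these times. slc34a1a, a sodium-phosphate cotransporter gene, differed by −2.94 ± 0.52 at 3 dpi and −2.96 ± 0.53 at 7 dpi (limma adjusted p = 0.0221 and 0.0245). slc34a1a and slc20a1a, the other phosphate carrier, stood at 1.05 and 0.92 at 1 dpi, and neither passed (limma adjusted p = 0.164 and 0.0671). Between 1 and 3 dpi slc34a1a fell by 3.99 and slc20a1a fell by 2.52, the interval in which acy1 fell.

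Of 7 amino acid and peptide carriers in the list, 0, 5, 1 and 6 were lower at 1, 3, 5 and 7 dpi. Here too 6.9, 6.91, 1.46 and 12.4% of all genes were lower. The 7 include slc6a18, slc6a19a.1 and slc6a19a.2, which were already counted above with the slc6a family. slc7a9 and slc3a1, whose products together carry cystine and dibasic amino acids, differed by −1.98 and −1.62 between 7 and 3 dpi, and fell as slc22a2 did. slc1a1, a glutamate carrier gene, rose from 3 to 7 dpi by 1.06, as slc6a19b did. Of 6 anion carriers, 2, 3, 0 and 3 were lower. slc13a3, a dicarboxylate carrier gene, and slc5a12, a lactate carrier gene, differed by −2.24 ± 0.36 and −1.93 ± 0.20 at 1 dpi (limma adjusted p = 0.00923 and 0.00194), and slc5a12 by −3.32 ± 0.27 at 3 dpi and −2.41 ± 0.31 at 7 dpi. hnf4a, the gene of a transcription factor of the proximal tubule, was lower at 7 dpi, at −1.48.

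The genes that were higher at 1 dpi were cyp24a1 (4.12 ± 0.41), which breaks down active vitamin D, pck1 (3.76 ± 0.69), a gluconeogenic enzyme, ggt1a (2.63 ± 0.43) and anpepb (0.96 ± 0.24), 2 peptidase genes (limma adjusted p = 0.00172, 0.0145, 0.00962 and 0.0384). All 4 fell from 1 to 3 dpi, with differences of −3.82, −4.43, −1.40 and −2.21. At 1 dpi acy1, at 109.5% of its uninjured mean, lay between these genes and the carriers that were lower.

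Within the list slc6a19b and slc26a6l stood at the low end. At 3 dpi and again at 5 dpi none of the 45 genes had a smaller share of its uninjured mean left than either of them, the lowest of the list being 8.29% and 16.5%, and at 3 dpi slc26a6l at 8.21% was hardly below it. slc6a19b was chosen by its fall at 3 and 7 dpi and slc26a6l by its fall at 5 dpi. These places were thus favoured by the choice, and nothing is read from them. At 7 dpi 1 gene had less left than slc6a19b and 12 had less than slc26a6l. For acy1, 23 of the 45 had less left at 3 dpi and 30 at 7 dpi. For slc22a2 the counts were 33 and 12, so it went from above the median of the list at 3 dpi (37.8%) to below it at 7 dpi (31.7%). The lowest group mean fell at 3 dpi for 16 of the 45 genes, as for slc6a19b and slc26a6l, and at 7 dpi for 23, as for slc22a2 and acy1. Among all genes tested those shares were 26.1 and 25.4%, against 35.6 and 51.1% of the list. From 3 to 7 dpi, 3 of the 45 rose (slc1a1, hao2 and aqp1a.1) and 5 fell (ggt1a, slc7a9, slc3a1, slc13a1 and pdzk1), a share near the 16.7% of all genes that differed.

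**Figure D5:**
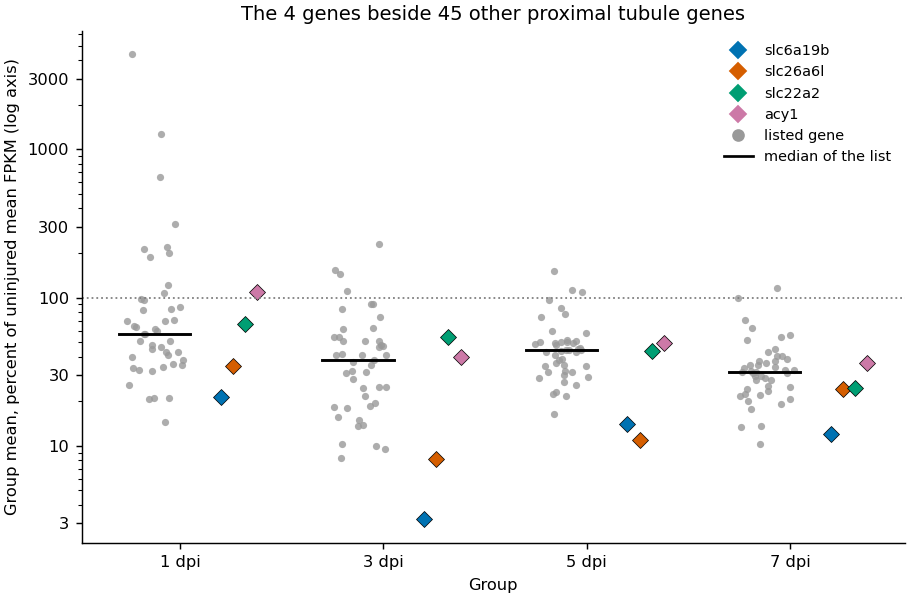
Group mean as a percent of the uninjured mean, on a log axis, at each time after injury. Grey points are 45 listed proximal tubule genes, shifted sideways at random to be seen, black lines their median (57.1, 37.8, 44.2 and 31.7% at 1, 3, 5 and 7 dpi), and diamonds the 4 genes described here. slc6a19b and slc26a6l lie below all grey points at 3 and 5 dpi, and acy1 and slc22a2 lie among them.

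Genes whose levels ran most like each of the 4 were taken by Pearson's r of log2(FPKM + 1) over the 15 samples, among 4306 genes, as a description. All points share the 5 groups, the libraries and their depth. For slc6a19b they were slc4a5 (r = 0.945), slc5a2 (0.934), slc26a6l (0.934), hgd (0.933) and akr1a1a (0.928). For slc26a6l they were slc5a2 (0.963), slc6a19b (0.934), fibina (0.927), aox6 (0.927) and cldn15a (0.916). slc22a2 ran most like hao1 (0.936), agmo (0.927), slco1f1 (0.924), slc7a9 (0.923) and ehhadh (0.916). acy1 ran most like slc4a4a (0.959), dpydb (0.949), slc44a5b (0.944) and abat (0.942). abat was, like acy1, not below its uninjured level at 1 dpi and lower later, with 143.7, 59.5, 61.8 and 44.1% of its uninjured mean in time order. slc4a5 had 37.3, 4.39, 18.6 and 15.9%, beside 21.5, 3.18, 14.0 and 12.1% for slc6a19b.

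Among the 4 genes, r over the 15 samples was highest between slc6a19b and slc26a6l, at 0.93. It was 0.76 between slc22a2 and acy1 and nearly the same, 0.74, between slc6a19b and acy1, and over the 12 injured samples these were 0.86, 0.67 and 0.64. The other r over the 15 samples ran from 0.43 to 0.70. After the group means were taken away r was 0.86 for slc6a19b with slc26a6l, 0.82 for slc22a2 with acy1, and 0.18 to 0.63 for the rest. 3 dpi replicate 3, the lowest of its group in slc6a19b and slc26a6l, held the highest slc22a2 level of its group. These samples share depth and makeup as well, so the correlations are given without a test.

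The 4 genes were also set against genes of the distal tubule. Relative to the mean of 7 listed distal tubule and collecting duct genes in the same sample, slc6a19b differed from uninjured kidneys by −2.05, −4.40, −2.35 and −2.58 in log2 across the time points in order, and slc26a6l by −1.31, −3.04, −2.36 and −1.62. slc22a2 stood at −0.38, −0.24, −0.70 and −1.42, and acy1 at 0.29, −0.74, −0.42 and −0.94. The reference is thin, since only 7 of 29 such genes are in the table. In it the stanniocalcin gene stc1l was lower at 1 dpi (−5.37 ± 0.99, limma adjusted p = 0.0145) while cldnb was higher at all 4 times. stc1l was at 328 to 3250 FPKM in uninjured samples and at 0.155 to 434 FPKM at 3 dpi, so the values above lean on this 1 gene. Whether stc1l marks distal tubule cells in these kidneys was not tested. Without stc1l, acy1 stood at −0.57 at 1 dpi, the opposite direction, and at −1.71, −1.14 and −1.17 later, and slc22a2 at −1.24, −1.21, −1.42 and −1.64. slc6a19b then stood at −2.92, −5.37, −3.07 and −2.80 and slc26a6l at −2.18, −4.01, −3.08 and −1.85.

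Markers of other tissues also varied between samples. Of 23 ovary genes 11 are in the table, and their summed level was 2.14 to 1783 FPKM in uninjured samples. It was 6.28 to 582 FPKM at 1 dpi and 1.62 to 12.4 FPKM at 3 dpi. The 5 dpi samples held 2.90 to 873 FPKM and the 7 dpi samples 147 to 250.1 FPKM. Up to 4 of the 11 were at 0 in a sample. Of 18 exocrine pancreas genes 16 are in the table, with sums of 38.6 to 551 FPKM in uninjured samples, 36.7 to 533 FPKM at 1 dpi and 13.6 to 643 FPKM at 3 dpi. Later sums were 8.18 to 19.9 FPKM (5 dpi) and 34.7 to 88.9 FPKM (7 dpi). Uninjured replicate 2, which had the highest slc22a2 and acy1 of its group, had the lowest ovary level, 2.14 FPKM, while slc26a6l was lowest in it. Macrophage genes (5 of 9 listed) summed to 411 to 496 FPKM in uninjured samples and 699 to 820.2 FPKM at 3 dpi, and interstitial genes (8 of 9 listed) to 72.1 to 216 FPKM and 178 to 262 FPKM at 5 dpi. The part of these other cells in the levels of the 4 genes was not tested.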

How the data were processed

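The authors deposited FPKM values for 15 kidney samples, named in 15 columns by sample title, for a selected part of the transcriptome (5686 genes, 5456 of them protein-coding). Tools named in the submitters' processing notes include featureCounts 1.5.0-p3 and StringTie 1.3.3b. The aligner and the strand setting are not given in the sources used here. A deposited gene group code was not used.

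Tests used limma 3.58.1 in R 4.3.3 (lmFit, eBayes with a trend) on log2(FPKM + 1). P-values are two-sided and were adjusted by Benjamini-Hochberg over 5685 genes, those with values above 0 FPKM in 3 or more samples, at a threshold of 0.05. Each comparison used the 6 samples of its 2 groups, and late against early injury the 12 injured samples. Exact permutation tests used scipy 1.17.1. Whole reads were recovered from the steps of the FPKM values for 99.96% of genes (tolerance 0.02 of a read), with relative depth from low values and absolute depth from 12 microRNA genes. They served for depth and 1 alternative. The limma fits were tested on simulated data. Counting error does not cover differences between kidneys.

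The 4 genes and all gene lists were chosen with earlier results of these data known, and the split of the proximal tubule list by role was made after its values were seen. Named genes were the 4 members, their symbol families, the 4 called genes with the lowest and the 4 with the highest change at each time in the proximal and distal lists, and the 5 genes with the highest r to each member, of which 1 for acy1 is not reported here. Other genes named were chosen after their values were seen. Alternatives were a pseudocount of 0.1, no filter, median-of-ratios scaling, all 15 samples in 1 fit, the replicate number as a block, limma voom on recovered reads, and leaving out each sample. Promoter and protein sequences were not used here.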

Additional observations from a re-analysis of the deposited data

Results flagged for a closer look

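Of the differences between single injured groups, 8 passed the threshold and are given again here. slc6a19b differed by −2.73 in log2 between 3 and 1 dpi, and by 1.90 between 7 and 3 dpi. slc6a19b was chosen by its low level at 3 dpi, on which both values draw, and the rise passed without 1 of the 6 samples in turn only when 3 dpi replicate 1 was left out (limma adjusted p up to 0.108). acy1 differed from its 1 dpi level by −1.41 at 3 dpi, −1.18 at 5 dpi and −1.54 at 7 dpi. slc26a6l differed by −1.51 between 5 and 1 dpi, and it was chosen by its level at 5 dpi. slc22a2 differed by −1.34 between 7 and 1 dpi and by −1.11 between 7 and 3 dpi. These are limma estimates with adjusted p between 0.00239 and 0.0389, with 3 samples in each group. Late against early injury, where acy1 also passed (−0.65, limma adjusted p = 0.0221), pools 2 groups on each side.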

How the results depend on the processing

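slc6a19b and acy1 at 3 against 1 dpi, and acy1 at 7 against 1 dpi, kept their calls under all 12 alternatives each, leave-one-out included. Other calls did not. slc26a6l at 3 against 1 dpi passed with all 15 samples in 1 fit (−2.10, limma adjusted p = 0.0131), and without 1 sample its value ran from −2.77 to −1.503. With all 15 samples slc22a2 missed the threshold at 7 against 1 dpi (−1.34, limma adjusted p = 0.0648) and at 7 against 3 dpi (−1.11, limma adjusted p = 0.223). By limma voom on recovered reads slc26a6l stood at −4.49 at 3 dpi against uninjured, since the pseudocount of 1 is near its level there. By Spearman's rho, 0, 2, 3 and 2 of the 5 genes most like slc6a19b, slc26a6l, slc22a2 and acy1 were shared. Relative to the distal list without stc1l, an alternative chosen after seeing the data, acy1 averaged −1.15 over the injured groups, not −0.45.

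Without 1 sample at a time, values ran from −1.81 to −1.17 (slc26a6l) and −1.35 to −0.83 (acy1) at 5 against 1 dpi, from −1.09 to −0.63 (slc6a19b) and −1.68 to −1.07 (slc22a2) at 7 against 1 dpi, and from 1.38 to 2.25 (slc6a19b) and −1.36 to −0.92 (slc22a2) at 7 against 3 dpi. For late against early injury they ran from −1.15 to −0.60 (slc22a2) and −0.74 to −0.48 (acy1).

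With the replicate number as a block, slc26a6l passed at 3 against 1 dpi (−2.10, limma adjusted p = 0.0415), while slc26a6l (−1.51) and acy1 (−1.18) at 5 against 1 dpi and slc6a19b at 7 against 3 dpi (1.90) missed it (limma adjusted p = 0.0541, 0.0929 and 0.0517). Against uninjured the block left 314, 0, 0 and 0 genes at 1, 3, 5 and 7 dpi in place of 1127, 757, 464 and 975. Whether the numbers pair the samples is not stated. Correlations of same-numbered deviations ran from −0.78 to 0.77, and in no comparison did every sample correlate best with its own number. With 3 samples in each group these correlations cannot decide whether the numbers stand for a pairing. Of the proximal tubule list, 3, 0, 0 and 0 genes were lower with the block, and 16, 26, 26 and 34 with all 15 samples. All 15 samples gave 1987, 1493, 1063 and 1315 called genes, and 174, 374 and 47 between 5 and 3, 7 and 3, and 7 and 5 dpi. A motif and protein comparison was not run, because no sequence table was used here.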

Other observations

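Of 13 genes of nephron progenitors and new nephrons 4 are in the table, lhx1a, fzd9b, lef1 and wt1b. Their summed level was 4.90 to 6.70 FPKM in uninjured kidneys, 2.41 to 4.52 FPKM at 3 dpi, 15.8 to 20.4 FPKM at 5 dpi and 8.19 to 13.8 FPKM at 7 dpi. wt1b, with a mean of 10.9 FPKM at 5 dpi, held most of that sum, and it alone passed as higher than uninjured at 5 dpi (2.07, limma adjusted p = 0.0224). wt1b is also on the podocyte list, of which 2 genes are in the table, both higher than uninjured at 5 and 7 dpi. At those times 6.7 and 4.78% of all genes were higher. lhx1a and fzd9b had 311 and 191% of their uninjured means at 5 dpi and lef1 56.6%, and none of these passed. At 3 dpi lhx1a had 28.2% of its uninjured mean and passed as lower (−0.76, limma adjusted p = 0.0298), where 6.91% of all genes were lower. At 7 dpi 1 of the 4 passed as higher than uninjured. Against 1 dpi 3 of the 4 were higher at 5 dpi, where 15.3% of all genes were higher. Against 3 dpi the limma adjusted p of the 4 at 5 dpi ran from 0.0847 to 0.343, in a comparison where only 4 genes of the table passed. At 7 against 3 dpi lhx1a (1.63, limma adjusted p = 0.00933) and fzd9b (0.65, limma adjusted p = 0.04) passed as higher. wt1b and lef1 did not (limma adjusted p = 0.0693 and 0.106). Of all genes 16.7% differed in that comparison in either direction.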
